A study of Arabidopsis thaliana with 6 samples.

Results

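The WRKY family of transcription factors was examined in seedlings of frb1-1, an Arabidopsis mutant with defective cell adhesion, and of the wild type. A probe set was taken as a member if the annotation of the array gave it to 1 gene only and the symbol of that gene was WRKY followed by a number. By this rule 6 genes were members, WRKY6 (At1g62300), WRKY20 (At4g26640), WRKY22 (At4g01250), WRKY42 (At4g04450), WRKY47 (At4g01720) and WRKY53 (At4g23810), with 1 probe set for each gene. They are 6 of 13350 genes that the annotation gives a probe set of their own, and of 22746 probe sets that are not controls. The gene table of RefSeq (TAIR10.1) holds 72 genes with a WRKY number as symbol or synonym, so that the members are a small share of the family, set by which probe sets the annotation names.

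Both groups consisted of whole seedlings of the ecotype Columbia (Col-0), 10 days old, grown under constant light on 0.5X MS medium with no treatment given in the labels. Wild-type FRB1 and frb1-1 were each hybridized as 3 biological replicates, on 6 ATH1 arrays in all. The sample labels give the genotype as frb1 mutant, and the allele is taken from the methods of the paper. In frb1-1 a T-DNA lies upstream of the coding region of FRB1 (At5g01100), which encodes a Golgi protein, and the paper regards the line as a likely partial loss of function. A single insertion line was used, so that other differences between that line and the wild type cannot be told apart from the loss of FRB1 on these arrays.

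WRKY proteins are plant transcription factors named after a conserved run of amino acids at the start of their DNA-binding domain, which also holds a zinc finger. Most bind the W box, a short promoter element with the core TTGAC, and many WRKY genes carry W boxes in their own promoters, so that members can regulate each other. They are best known for their part in defence against pathogens, in the salicylic acid response and in leaf senescence, and many are transiently induced by wounding and other stresses. The family is divided by the number of WRKY domains and the type of zinc finger into groups I, II and III, and group II is divided further into IIa to IIe. WRKY20 belongs to group I, whose members carry a pair of WRKY domains, WRKY6, WRKY42 and WRKY47 to group IIb, WRKY22 to group IIe and WRKY53 to group III.

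Transcripts are read by probe sets, groups of short oligonucleotides, and the values are linear signal intensities that the authors obtained with MAS 5.0 using a target of 500. The median signal of an array ran from 154 on wild-type replicate 3 to 199 on wild-type replicate 1, and arrays correlated from 0.918 to 0.972 within a group and from 0.920 to 0.962 between groups over log2 signals. No probe set is named for FRB1, so that the genotype labels were not checked with its signal. Of 5 shoot and 6 root markers that were listed, the annotation names 1 each. These are RCA, a chloroplast protein that activates rubisco, and PYK10, a beta-glucosidase of roots and hypocotyls, and none of 4 listed markers of dry seeds is named. For RCA, wild-type arrays averaged a signal of 26932 ± 4285 (SD, n = 3) and frb1-1 arrays 20403 ± 3776 (SD, n = 3), with a log2 difference (frb1-1 minus wild type) of -0.41 ± 0.20 (SE, limma adjusted p = 0.889), and its groups overlapped. PYK10 differed by 0.07 ± 0.18 (SE, limma adjusted p = 0.99998) on the log2 scale. The part of the lower RCA mean in the values of the WRKY genes was not tested. RNA of whole seedlings was measured, so that a lower signal from fewer cells of a type and one from less RNA per cell cannot be told apart.

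Of the 6 WRKY genes, 5 averaged a log2 signal of 6 or more (a signal of 64) over the 6 arrays and were tested together with 15218 probe sets in all, and WRKY42 fell below this minimum. None of the 5 rose or fell in frb1-1 at an adjusted p under 0.05 (limma, Benjamini-Hochberg over all tested probe sets), and none had an unadjusted p under 0.05. Over all tested probe sets 0.276% were higher and 0.092% were lower at an adjusted p under 0.05, and 5.96% had an unadjusted p under 0.05. The mean signals of WRKY6, WRKY22 and WRKY53 were higher in frb1-1 and those of WRKY20 and WRKY47 were lower, with ratios of mean signals from 0.724 for WRKY47 to 1.55 for WRKY6. None of these 5 members differed 2-fold by the ratio of mean signals, where 1.18% of all tested probe sets were at least 2-fold higher and 0.48% at least 2-fold lower.

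**Figure D1:**
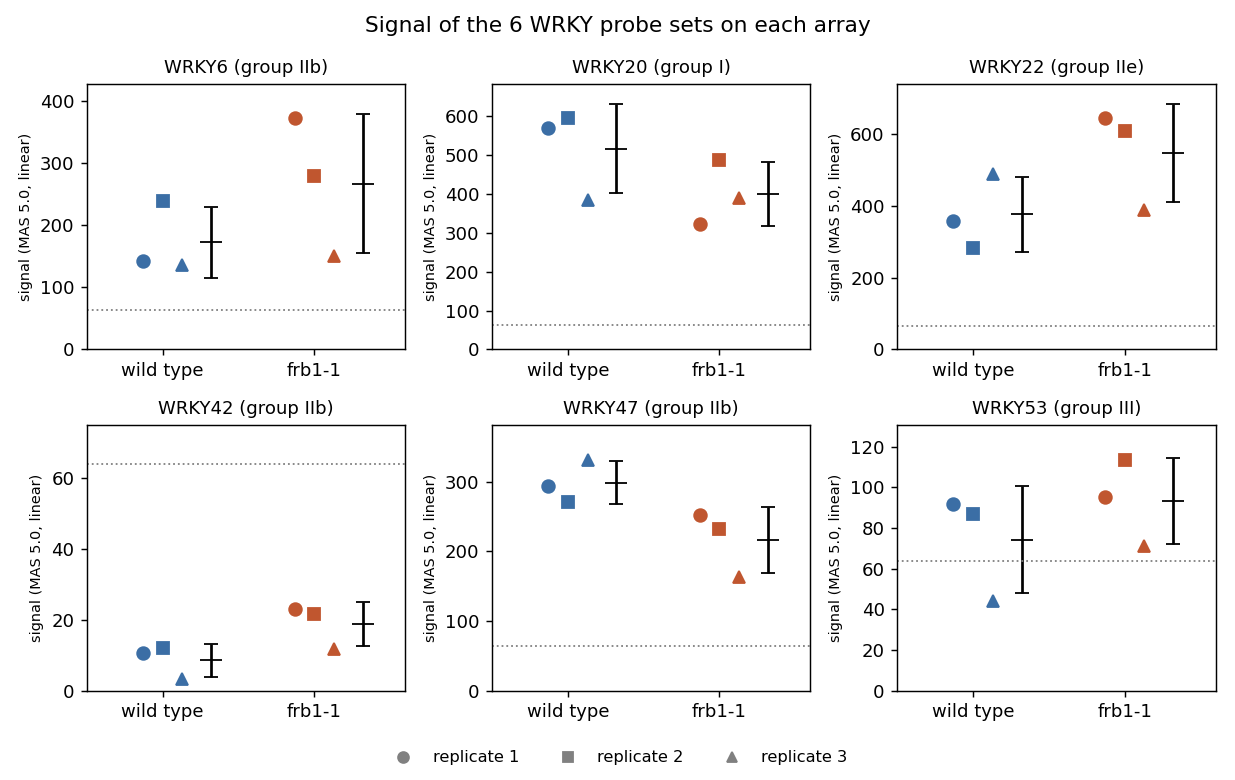
Signal of the 6 WRKY probe sets (linear MAS 5.0 signal, y axis, each panel with its own scale) on the 3 wild-type and 3 frb1-1 arrays, with the mean and SD of each group beside the points and a dotted line at a signal of 64. The 3 frb1-1 points of WRKY47 lie below the 3 wild-type points, the groups of the other 5 genes overlap, and WRKY42 stays below the dotted line on every array.

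WRKY22 acts in innate immunity, downstream of the receptor for bacterial flagellin and a cascade of MAP kinases. Its signal was 357, 283 and 489 on the wild-type arrays (replicates 1 to 3) and 644, 607 and 390 on the frb1-1 arrays (replicates 1 to 3). Replicates 1 and 2 of frb1-1 lay above all wild-type arrays, and frb1-1 replicate 3 lay within the wild-type range, so that the groups overlapped. The mean signal was 376 ± 104 (SD, n = 3) for wild type against 547 ± 137 (SD, n = 3) for frb1-1, a log2 change of 0.54 ± 0.28 (SE, limma adjusted p = 0.954). The log2 change is the mean log2 signal of frb1-1 minus that of the wild type. Its 95% confidence interval ran from -0.07 to 1.16 on the log2 scale, so that a 2-fold rise is within it and a 2-fold fall is not.

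WRKY53 is a regulator of early leaf senescence and takes part in basal defence. Its signal was 92.0, 86.8 and 44.1 on the wild-type arrays (replicates 1 to 3) and 95.2, 114 and 71.3 on the frb1-1 arrays (replicates 1 to 3). All arrays were dim, replicate 3 was the lowest array in both groups, and wild-type replicate 3 fell below the minimum of 64 that was asked of the mean. With means of 74.3 ± 26.3 (SD, n = 3) for wild type against 93.4 ± 21.3 (SD, n = 3) for frb1-1, the log2 change was 0.38 ± 0.46 (SE, limma adjusted p = 0.99998), with a 95% interval from -0.63 to 1.39. Without wild-type replicate 3 the log2 change was 0.038, so that this array carried most of the difference.

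WRKY6, WRKY42 and WRKY47 belong to the same group, IIb. WRKY6 is active in senescence and defence, and WRKY6 and WRKY42 repress PHO1, which exports phosphate to the xylem. The WRKY6 signal was 142, 238 and 136 on the wild-type arrays (replicates 1 to 3) and 372, 278 and 150 on the frb1-1 arrays (replicates 1 to 3). The highest frb1-1 array of WRKY6 was 2.48-fold above the lowest, a wider span than the 1.55-fold ratio between the genotype means, and frb1-1 replicate 3 lay within the wild-type range. The mean of WRKY6 was 172 ± 57.3 (SD, n = 3) for wild type against 267 ± 111 (SD, n = 3) for frb1-1, a log2 change of 0.58 ± 0.37 (SE, limma adjusted p = 0.996, 95% interval -0.22 to 1.38).

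WRKY47 was the member whose groups stood apart. Its signal was 293, 271 and 332 on the wild-type arrays (replicates 1 to 3) and 253, 233 and 163 on the frb1-1 arrays (replicates 1 to 3). The highest frb1-1 array was below the lowest wild-type array, a pattern found in 4.65% of all tested probe sets. The means were 299 ± 30.8 (SD, n = 3) for wild type against 216 ± 46.8 (SD, n = 3) for frb1-1, a log2 change of -0.49 ± 0.26 (SE, limma adjusted p = 0.970, 95% interval -1.05 to 0.08). An exact two-sided permutation test of its 3 arrays against 3 gave p = 0.1, the smallest this design allows. WRKY47 did not pass the test across all probe sets.

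WRKY42 was dim on every array. Its signal was 10.6, 11.96 and 3.23 on the wild-type arrays (replicates 1 to 3) and 23.1, 21.7 and 11.6 on the frb1-1 arrays (replicates 1 to 3). Replicates 1 and 2 of frb1-1 lay above all wild-type arrays and frb1-1 replicate 3 did not. The ratio of mean signals was 2.18, between means of 8.61 and 18.8 that are both far below the minimum of 64, so that this fold is not exact. When all 22746 probe sets were tested with no minimum, WRKY42 had a log2 change of 1.27 ± 0.90 (SE, limma adjusted p = 0.9997), with a 95% interval from -0.69 to 3.24.

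WRKY20, of group I, had the opposite order of means to WRKY22. Its signal was 570, 594 and 384 on the wild-type arrays (replicates 1 to 3) and 322, 488 and 389 on the frb1-1 arrays (replicates 1 to 3). Wild-type replicates 1 and 2 lay above all frb1-1 arrays, and wild-type replicate 3 lay among them. The means of 516 ± 115 (SD, n = 3) and 400 ± 83.2 (SD, n = 3) gave a log2 change of -0.36 ± 0.26 (SE, limma adjusted p = 0.997, 95% interval -0.92 to 0.20).

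**Figure D2:**
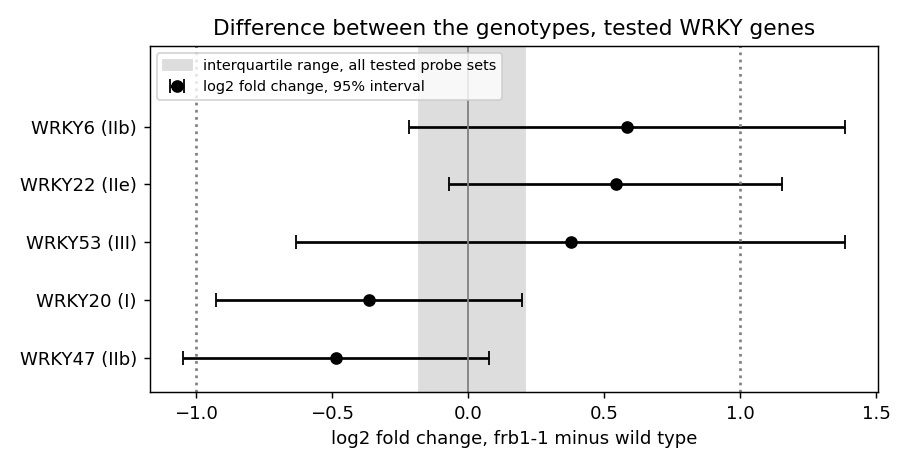
Log2 fold change (x axis, frb1-1 minus wild type) of the 5 tested WRKY genes with its 95% interval from limma, 3 arrays of each genotype. The shaded band marks the interquartile range of all 15218 tested probe sets, dotted lines mark a 2-fold change, and every interval crosses 0.

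The median log2 change of the 5 tested genes was 0.38, beside a median of 0.01 over all tested probe sets, whose interquartile range was -0.18 to 0.21. All 5 values lay outside this range, 3 above and 2 below, so that the members did not share a direction. Of all tested probe sets 51.3% had a positive log2 change. The median of the members rests on the dim WRKY53, and when the mean log2 signal had to reach 7, which leaves 4 members, it was 0.090. The pooled within-group SD of the log2 signal was 0.57 for WRKY6, 0.48 for WRKY53, 0.40 for WRKY22, 0.32 for WRKY20 and 0.26 for WRKY47, where the median over all tested probe sets was 0.33.

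The members were also compared with each other within each array, since the ratio of a pair of signals on the same array does not depend on the scaling of that array. Of the 10 pairs of tested genes, 4 had ratios that did not overlap between the genotypes, beside 11.7% of all pairs of tested probe sets. Of these 4 pairs 3 hold WRKY47, whose own groups stood apart, so that the count in part restates that gene. The ratio of WRKY22 to WRKY47 was 1.22, 1.04 and 1.47 on the wild-type arrays (replicates 1 to 3) and 2.55, 2.61 and 2.39 on the frb1-1 arrays (replicates 1 to 3). The 3 frb1-1 ratios lay close together and above all wild-type ratios. Of the 10 pairs this one had the smallest frb1-1 spread, so that it is not a typical pair. Both genes had their lowest frb1-1 signal on replicate 3, and a drop that 2 genes share cancels in their ratio. The log2 ratio changed by 1.03, from a wild-type mean of 0.30 ± 0.25 (SD, n = 3) to 1.33 ± 0.07 (SD, n = 3), which is a 2.04-fold change of the ratio.

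Within group IIb, the log2 ratio of WRKY6 to WRKY47 changed by 1.07, from a wild-type mean of -0.84 ± 0.58 (SD, n = 3) to 0.23 ± 0.34 (SD, n = 3) in frb1-1. The other pairs that did not overlap were WRKY20 with WRKY53, whose log2 ratio fell by 0.74, and WRKY47 with WRKY53, whose log2 ratio fell by 0.86. The exact two-sided permutation p was 0.1 for each of these 4 pairs, the smallest that 3 arrays against 3 allow. It was 0.25 after Benjamini-Hochberg adjustment over the 10 pairs. No pair could have come under 0.05 in this design, so that the test cannot decide on any of them. The 10 pairs share 5 genes and are not independent. The log2 ratio of WRKY6 to WRKY22 changed by 0.041, and here the wild-type arrays spread widely (SD 0.81, n = 3).

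**Figure D3:**
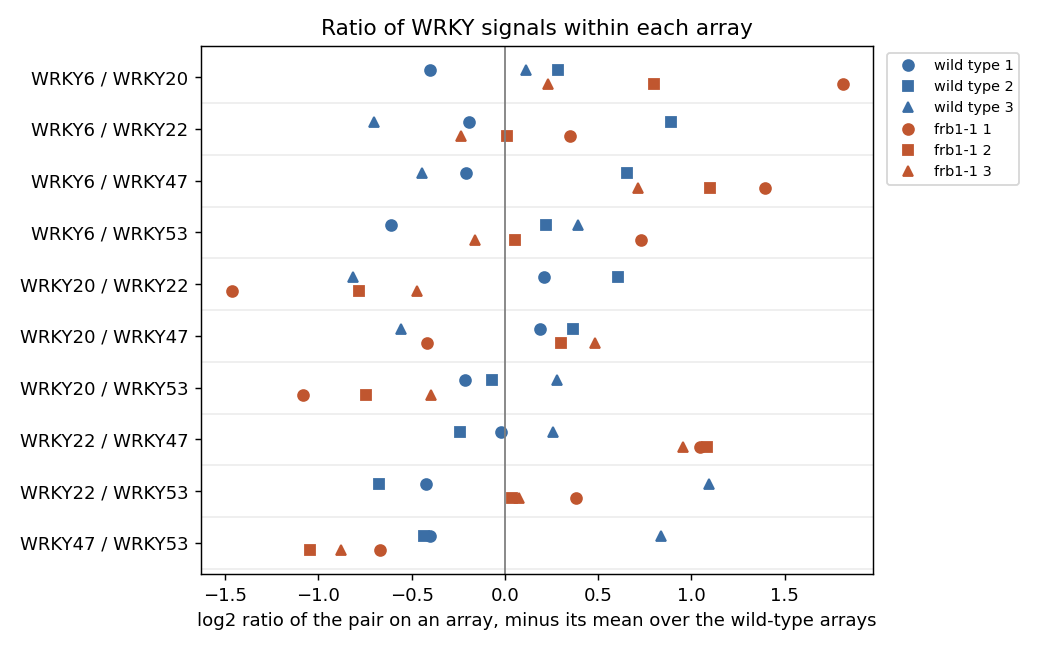
Log2 ratio of the signals of each pair of tested WRKY genes on each array (x axis, after subtracting the mean of the wild-type arrays), with blue points for wild type and orange points for frb1-1. The frb1-1 points of WRKY22 / WRKY47 lie within the narrowest range of the 10 pairs, about 1.03 above the wild-type mean, and 6 of the 10 pairs overlap between the genotypes.

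The log2 changes of the members depended on single arrays. WRKY6 ran from 0.30 without frb1-1 replicate 1 to 0.95 without frb1-1 replicate 3, and WRKY22 from 0.36 without wild-type replicate 2 to 0.77 without frb1-1 replicate 3. WRKY53 ran from 0.038 without wild-type replicate 3 to 0.57 without wild-type replicate 1. Of the genes with lower means, WRKY20 ran from -0.56 without wild-type replicate 3 to -0.22 without frb1-1 replicate 1, and WRKY47 from -0.61 without frb1-1 replicate 1 to -0.30 without frb1-1 replicate 3. No member passed the threshold without any 1 array, and the lowest adjusted p was 0.538, for WRKY22 without wild-type replicate 3 (limma). Replicate 3 of frb1-1 had the lowest frb1-1 signal for 5 of the 6 WRKY genes, all but WRKY20, where 39.5% of all tested probe sets had their lowest frb1-1 signal on that array. Replicate 3 of the wild type had the lowest wild-type signal for 4 of the 6, beside 42.9% of all tested probe sets. The groups of WRKY47 did not overlap with all 6 arrays, so that leaving out 1 array could not make them overlap. Groups stand apart more easily with 1 array fewer, and with all arrays 6.26% of tested probe sets were above in frb1-1. Without wild-type replicate 1, frb1-1 replicate 1 or frb1-1 replicate 2, 0 members were higher on all remaining frb1-1 arrays. Of all tested probe sets 11.3%, 8.9% and 10.6% were, in that order. The number was at most 4, the dim WRKY42 among them, without frb1-1 replicate 3, beside 11.9% of all tested probe sets.

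**Figure D4:**
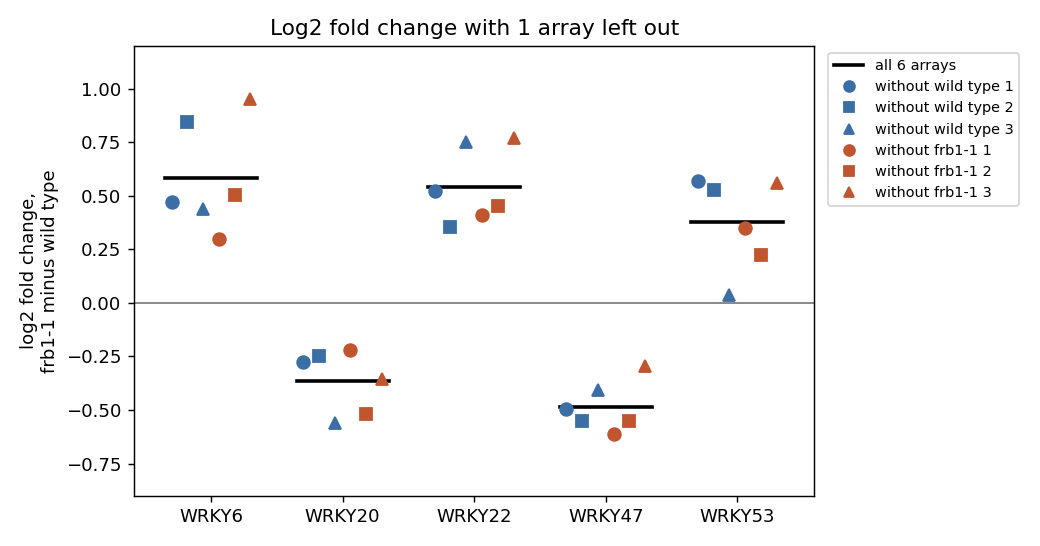
Log2 fold change (y axis, frb1-1 minus wild type) of the 5 tested WRKY genes with all 6 arrays (black line) and with each array left out (points, blue for wild-type and orange for frb1-1 arrays). No gene crosses 0, and WRKY53 comes closest, with 0.038 without wild-type replicate 3.

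A further 2 members of the family were named outside the rule. ZAP1, the RefSeq symbol of WRKY1 (At2g04880), a group I gene, had a signal of 524, 555 and 267 on the wild-type arrays (replicates 1 to 3) and 340, 435 and 395 on the frb1-1 arrays (replicates 1 to 3), with a log2 change of -0.14 ± 0.29 (SE, limma adjusted p = 0.99998). Its frb1-1 arrays lay within the range of the wild-type arrays. WRKY70 (At3g56400) is a group III gene that promotes salicylic acid responses and represses jasmonate responses. It is named by a supplementary table of the paper that was chosen on these arrays. The direction of WRKY70, its size and its p-values are therefore no independent evidence. Its signal was 184, 281 and 134 on the wild-type arrays (replicates 1 to 3) and 379, 497 and 436 on the frb1-1 arrays (replicates 1 to 3). All frb1-1 arrays of WRKY70 were above all wild-type arrays, as for 6.26% of all tested probe sets, and its ratio of mean signals was 2.19. The log2 change of WRKY70 was 1.19 ± 0.29 (SE, limma adjusted p = 0.194, 95% interval 0.55 to 1.83), and it did not pass the threshold. With the replicate number as a block its adjusted p was 0.0370 (limma), and over the other alternatives it ran from 0.0969 to 0.706.

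Genes that act up- or downstream of WRKY factors were read from 8 lists with 78 genes, of which the annotation names 8, and 6 were tested. None passed an adjusted p of 0.05 in limma, in either direction, and 1 had an unadjusted p under 0.05. Their median log2 change was 0.23, with 4 positive and 2 negative values. Of the 6 signs 3 turned with 1 array left out, those of both negative genes, GRX480 (0.031 without wild-type replicate 1) and IKU1 (0.063 without wild-type replicate 3), and that of PDF1.2A (-0.41 without wild-type replicate 2 and -0.15 without frb1-1 replicate 3). No listed gene of MAP kinase modules, of camalexin and indole glucosinolate synthesis, or of the 4 genes tied to single members, such as PHO1, was named, so that the partners of WRKY22, WRKY6 and WRKY42 were not read here.

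SAG29, a sugar transporter gene induced in senescence, had the smallest p of these genes. Its signal was 179, 103 and 143 on the wild-type arrays (replicates 1 to 3) and 306, 231 and 204 on the frb1-1 arrays (replicates 1 to 3). All frb1-1 arrays were above all wild-type arrays, as for 6.26% of all tested probe sets, with a log2 change of 0.82 ± 0.30 (SE, limma adjusted p = 0.676). BIK1, a receptor-associated kinase of pattern-triggered immunity, was also above the wild type on all frb1-1 arrays, with a log2 change of 0.33 ± 0.20 (SE, limma adjusted p = 0.996).

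The groups of the other tested genes overlapped. SAG101, which works with EDS1 in salicylic acid signalling, had a log2 change of 0.56 ± 0.44 (SE), and GRX480, a glutaredoxin gene induced by salicylic acid, had -0.24 ± 0.40 (SE). PDF1.2A, a plant defensin induced by jasmonate and ethylene, had 0.14 ± 0.60 (SE), the least precise value. IKU1, a VQ protein that acts with a WRKY factor in seed growth, had -0.07 ± 0.23 (SE). PDF1.2B and THI2.1, the other named genes of jasmonate output, were below the minimum signal.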

How the data were processed

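RNA of whole 10-day-old seedlings, 3 wild-type and 3 frb1-1 samples grouped by their labels, was hybridized to ATH1 arrays. The deposited values are the signal intensity of 22810 probe sets on a linear scale, which the authors computed with MAS 5.0 at a target of 500 (the trimmed mean was 500 here). In the paper, probe sets with an absent call on any replicate were dropped next. Detection calls were not used here.

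Without the 64 controls, 15218 probe sets averaged a log2 signal of 6 or more and were compared between genotypes in R 4.3.3 by limma 3.58.1, using lmFit and eBayes (trend on). The signals were neither rescaled nor given a pseudocount. Benjamini-Hochberg adjustment ran over all tested probe sets, at a threshold of 0.05. The fit was tested on simulated data. No pair of arrays held identical values, and the number of arrays limits the precision. In the annotation 13513 probe sets have 1 gene, 503 have several, and 8794 are unnamed here.

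The members and lists were chosen with earlier results of these data known, and the list of 4 genes tied to single members was added once the members were known. The rule for named genes takes called members, those with groups that do not overlap and an unadjusted p under 0.05, the 5 brightest, both ends of the fold changes, members with a textbook role, and per pathway list the 2 genes with the smallest p. WRKY42, ZAP1 and WRKY70 are named outside it. Alternatives were 2 other scalings, 3 other filters, adding 32 before the log, the replicate number as a block, leaving out each array, no trend, array weights, the mean of probe sets and geometric means.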

Additional observations from a re-analysis of the deposited data

How the results depend on the processing

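None of the 5 tested WRKY members and no pathway gene passed the threshold under any alternative. WRKY42 was tested only with no filter and did not pass there. The sign of each of the 5 tested WRKY genes was kept under all of the alternatives that could test it. The lowest adjusted p of a member was 0.293, for WRKY22 with array weights. The median log2 fold change of the members was 0.090 when the mean log2 signal had to reach 7 and also when every array had to reach 6, both of which drop WRKY53, and 0.038 to 0.56 with 1 array left out, the lowest without wild-type replicate 3. With no filter 1 of the 6 members, WRKY42, was at least 2-fold higher. Values that changed sign without 1 array ran from -0.42 to 0.031 for GRX480, -0.41 to 0.57 for PDF1.2A, -0.22 to 0.063 for IKU1 and -0.48 to 0.051 for ZAP1. IKU1 was 0.018 with array weights. Arrays with the same replicate number deviated together with r = 0.04, 0.28 and 0.32, and arrays with different numbers with r from -0.31 to 0.12. The values of replicates 2 and 3 were thus the highest, and whether these replicates were paired or shared a batch was not tested. The sample titles only number the replicates, and the main fit did not pair them. With the replicate block none of the 5 tested members was called, and their median log2 fold change stayed at 0.38. In that fit 138 probe sets were called in place of 56, among them WRKY70, from outside the rule (adjusted p = 0.0370 from limma). Low MAS 5.0 signals, as for WRKY42 and WRKY53, give folds of low precision.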
